A study of Mus musculus with 2 samples.

Results

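The genes described here encode ATP-dependent chromatin remodelers, their subunits and some bromodomain proteins. They were chosen by symbol, as protein-coding transcripts in GENCODE M21 named Smarc, Arid1, Arid2, Chd, Ino80, Brd, Baz, Mta or Gatad2 with their suffixes, or Bptf, Atrx, Srcap, Ep400, Actl6a, Dpf2 or Pbrm1. The rule found 217 transcripts of 53 genes, among 46833 protein-coding transcripts of 19342 genes with an intron value. The rule uses names and annotation alone, though it was set with earlier results of these data known.

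The cells were wild-type mouse embryonic stem cells of the XY line DTCM23/49, depleted of feeder cells and grown on gelatin with serum and leukemia inhibitory factor. For 10 min they were given 4-thiouridine (4sU) at 200 µM, which takes the place of some uridines in RNA made during that time. The RNA with 4sU was linked to biotin and pulled out on streptavidin, which gave a labeled pool, newly made, and an unlabeled pool, older. The study asked whether rates of RNA synthesis, processing and degradation can be read from such a separation at 1 time point in 1 sample. Each pool is 1 library of replicate 1, so no value below has a replicate check and no test was made. The labels are at odds on the unlabeled library, which appears both as preexisting and as total RNA, and it is read here as unlabeled.

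Chromatin remodelers are motors of the Snf2 family that use ATP to slide, evict or exchange nucleosomes. They work in families: SWI/SNF (BAF) opens chromatin at enhancers and promoters, ISWI spaces nucleosomes, CHD motors carry chromodomains, NuRD joins a CHD motor to histone deacetylases, and INO80, SRCAP and p400 handle the histone variant H2A.Z. In embryonic stem cells a form of BAF built around Smarca4, Arid1a and Smarcc1 is known to be needed for self-renewal, and bromodomains, which read acetylated lysines, occur both in remodelers and in the BET proteins.

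The ATPase is the part that all the motors share, and its helicase motif II, a DEAH box or a close variant of it, holds the acidic residues that coordinate magnesium for ATP hydrolysis. The coding stretch around it is shown for Smarca4 and Smarca5, whose protein-coding transcripts all hold it, and for the 7 motor genes whose most abundant transcript lacks it. Each sequence is 60 bases of the coding strand, 5′ to 3′, from GENCODE M21 transcripts, with the 12 bases of the motif in capitals.
Smarca4: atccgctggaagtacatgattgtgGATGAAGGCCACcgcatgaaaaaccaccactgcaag
Smarca2: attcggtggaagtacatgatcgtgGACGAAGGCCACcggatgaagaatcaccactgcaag
Smarca5: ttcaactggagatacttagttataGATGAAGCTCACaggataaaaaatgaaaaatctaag
Atrx: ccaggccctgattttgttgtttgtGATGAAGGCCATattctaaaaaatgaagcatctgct
Chd2: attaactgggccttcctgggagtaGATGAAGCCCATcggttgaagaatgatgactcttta
Chd6: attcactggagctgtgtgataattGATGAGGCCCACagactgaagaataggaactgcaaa
Chd7: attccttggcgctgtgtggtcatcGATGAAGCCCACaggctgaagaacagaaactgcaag
Chd8: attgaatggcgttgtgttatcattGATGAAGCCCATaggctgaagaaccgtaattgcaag
Ep400: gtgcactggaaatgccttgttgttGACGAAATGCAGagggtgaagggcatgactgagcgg
On GRCm38 the stretches lie on the plus strand at chr9:21667166-21667225 for Smarca4, chr19:26681871-26681930 for Smarca2 and chr4:8828319-8828378 for Chd7, and on the minus strand at chr8:80726211-80726270 for Smarca5, chrX:105845497-105845500 and chrX:105839923-105839978 for Atrx, chr7:73490595-73490654 for Chd2, chr2:161018056-161018115 for Chd6, chr14:52219627-52219686 for Chd8 and chr5:110708803-110708862 for Ep400. Each is coding exon sequence, and that of Atrx spans a splice junction. Smarca2 and Smarca4 shared 53 of the 60 bases, and Smarca1 and Smarca5 shared 54, so reads from such stretches separate the paralogs by few bases.

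The deposited values are relative abundances per length, called TPM, of the exons and of the introns of each transcript. The total of a library was 10 times that of the usual TPM, and TPM below means the deposited unit. Read depth is unknown, so no counting error can be given. Intron values made up 15.4% of all labeled signal and 6.26% of all unlabeled signal. All 11 pluripotency markers checked had signal, between 40.06 and 6580 TPM of exons in unlabeled RNA. Of 8 feeder fibroblast markers, 5 were at 0 in unlabeled RNA and the highest, Thy1, was at 14.45, and of 9 markers of differentiating cells 4 were at 0 and the highest, Pax6, was at 70.47. In such bulk RNA, fewer cells of a type and less RNA per cell cannot be told apart.

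One transcript stood for each gene, the protein-coding transcript with an intron value and the highest mean exon TPM of both libraries. All 53 genes had a mean exon TPM above 1 and values above 0 for exons and introns in both libraries, as did 12452 protein-coding genes of the whole table, called all genes below. Of the 217 transcripts, 211 passed the same filter, and the other 6 (of Chd3, Smarca2, Smarcad1 and Smarcd2) had a value of 0. RSEM divides reads among transcripts that share exons, so the split within a gene is uncertain where transcripts overlap. The members were abundant and long: their median mean exon TPM was 120.5 against 27.7 over all genes, their median span was 36521 bases against 21012.5, and their median number of exons was 17 against 8.

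The labeled to unlabeled exon ratio says how much of a transcript's exon signal lay in the new RNA. Both libraries are scaled to the same total, so the ratio is read against the median gene, which stood at 0.785 (−0.35 on the log2 scale). Members lay lower, with a median of 0.448, quartiles of 0.360 and 0.652 and a 95% order-statistic interval of 0.378 to 0.549 over the 53 genes. The interval covers the choice of genes, not measurement error. Against the median gene, 43 of the 53 were lower, where 50% of all genes are lower by definition. The ratio was at least 2-fold below the median gene in 19 members, or 35.8%, against 14.3% of all genes, and at least 2-fold above it in 1, Smarcd3, against 21.2%. As deposited, the ratio exceeded 1 in 6 members (Smarcd3, Ino80b, Chd2, Brd7, Chd6 and Chd7), against 38.1% of all genes.

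**Figure D1:**
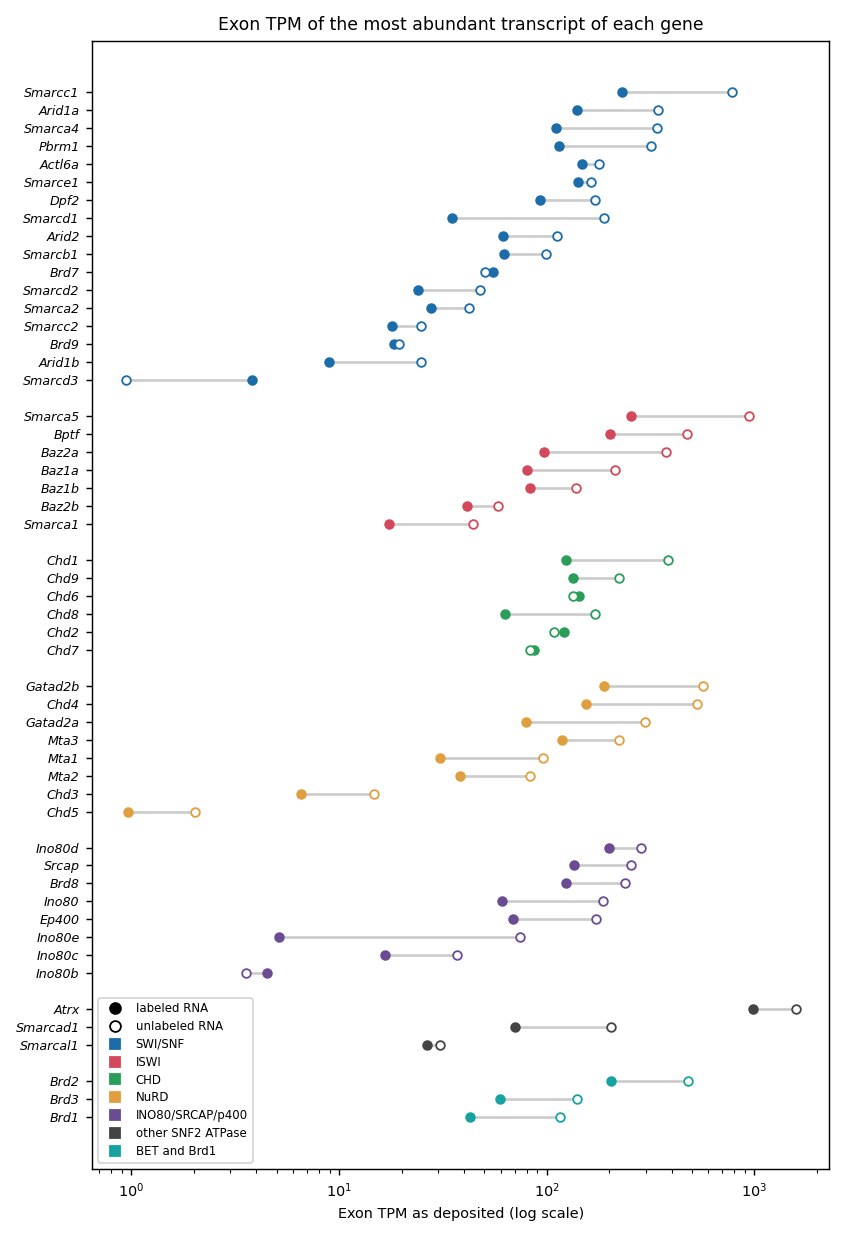
Exon TPM as deposited (log axis) in labeled RNA (filled) and unlabeled RNA (open) for the most abundant transcript of 52 of the 53 genes, 1 library each, grouped and coloured by class. The open circle lies right of the filled one in all genes but Smarcd3, Ino80b, Chd2, Brd7, Chd6 and Chd7.

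Long and abundant transcripts had lower exon ratios in the whole table too. Across genes, Spearman's rho between mean exon TPM and exon ratio was −0.39 over the 53 members and −0.27 over all 12452 genes, and with exon length it was −0.35 and −0.30; the genes share both libraries, and these are descriptions. Where the mean exon TPM exceeded 100, the median exon ratio was 0.398 in 31 members and 0.595 in 2725 genes. In these, 15 members (48.4%) and 22.5% of all genes were at least 2-fold below the median gene. With 10 to 100 TPM the medians were 0.503 in 19 members and 0.755 in all genes. With 4000 to 8000 exon bases they were 0.360 in 15 members and 0.590, and above 8000 bases 0.473 in 7 members and 0.550. Each comparison within a band of abundance or length placed the members lower except that of the 3 members with a mean exon TPM of 10 or less, whose median was 1.26 against 1.12.

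The intron signal behaved otherwise. The labeled to unlabeled intron ratio had a median of 4.42 in members and 4.03 over all genes. It was at least 2-fold above the median gene in 5 members (Smarcal1, Smarca2, Brd2, Chd6 and Brd3), or 9.43%, against 9.48% of all genes, and at least 2-fold below in 3 (Chd5, Baz2a and Chd8), against 10.8%. These shares are near the background. All protein-coding transcripts of the members together held 0.771% of the intron TPM of coding transcripts in labeled RNA and 0.498% in unlabeled RNA, but 0.660% of the exon TPM in labeled RNA and 1.11% in unlabeled RNA. The members' share was thus higher in new than in old RNA for introns, and lower for exons. Such shares depend on the summed total, and the median intron ratios above, 4.42 and 4.03, were close. The rise in intron share is therefore not read as particular to the members.

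**Figure D2:**
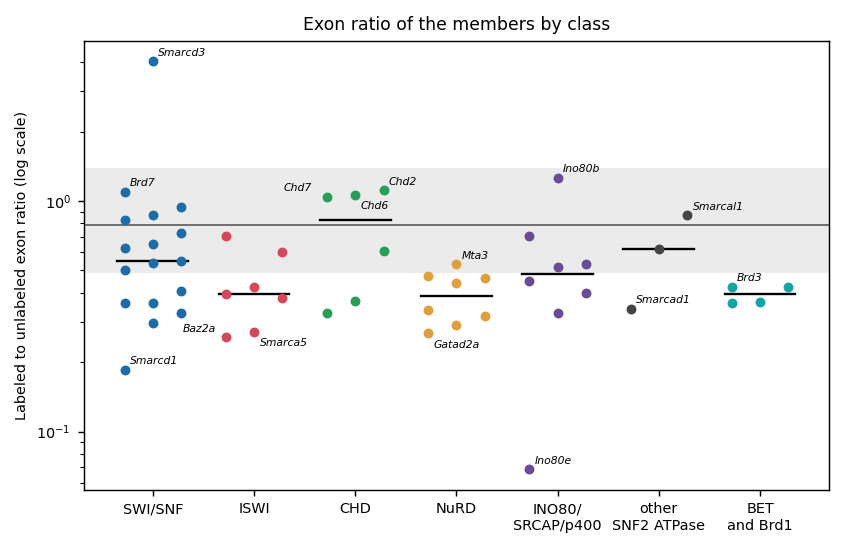
Labeled to unlabeled exon ratio (log axis) of the 53 genes by class, 1 point a gene, with the class median as a black bar. The grey line and band are the median and quartiles of all 12452 genes, and all points of ISWI, NuRD and the BET class lie under the grey line at 0.785.

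In the SWI/SNF class, 12 of 17 genes lay below the median gene, 5 of them at least 2-fold, and the median exon ratio was 0.549. Smarcc1, a scaffold subunit, was the most abundant, at 230.1 TPM of exons in labeled and 779.1 in unlabeled RNA, a ratio of 0.295. The motor Smarca4 had 110.8 TPM in labeled and 339.9 in unlabeled RNA, a ratio of 0.326. Smarcd1, an accessory subunit, had the lowest ratio of the class, 0.186, from 35.08 TPM in labeled and 188.9 in unlabeled RNA. At the other end stood its paralog Smarcd3, at 3.80 TPM in labeled and 0.94 in unlabeled RNA, a ratio of 4.04 that rests on very low values. Smarcd3, known as the heart and muscle form, and Smarcd1 therefore bounded the class from opposite sides. Actin-related Actl6a and the HMG-box subunit Smarce1, with ratios of 0.823 and 0.869, and the bromodomain subunits Brd7 and Brd9, with 1.10 and 0.946, were above the median gene as well.

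Paralogs of this class differed widely in level when all protein-coding transcripts of a gene were summed. Smarcc1 was 47.6 times as high as Smarcc2 in unlabeled RNA and 23.1 times in labeled RNA. Arid1a, an ARID subunit of canonical BAF, was 22.0 and 20.7 times as high as Arid1b. Smarcd1 was 124.3 times as high as Smarcd3 in unlabeled RNA but 5.25 times in labeled RNA, and 1.52 times as high as Smarcd2 in unlabeled but 0.652 times in labeled RNA. The order Smarcc1 above Smarcc2 and Arid1a above Arid1b was the same in both pools, and that of Smarcd1 and Smarcd2 was not.

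Smarca4 exceeded Smarca2, the other SWI/SNF motor, by 4.66 times in unlabeled and 2.86 times in labeled RNA over all protein-coding transcripts. Most of the Smarca2 signal, however, lay in short transcripts from the 3′ end of the gene. The 3 transcripts with the motif II stretch shown above, of 33 or 34 exons, held 16.10 TPM in labeled and 31.15 in unlabeled RNA, or 13.01% and 14.60% of the gene. Counting only transcripts that hold the stretch, Smarca4 was 31.9 times as high as Smarca2 in unlabeled RNA and 22.0 times in labeled RNA. The most abundant, Smarca2-204 with 8 exons, had 27.68 TPM in labeled and 42.44 in unlabeled RNA. Its introns had only 0.69 and 0.07 TPM, which gave the lowest labeled intron to exon ratio of all members, 0.0249. The full-length Smarca2-209 had intron to exon ratios of 0.177 in labeled and 0.0268 in unlabeled RNA, closer to the other genes.

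All 7 genes of the ISWI class lay below the median gene, with a median exon ratio of 0.393. The motor Smarca5, with a single protein-coding transcript, was the most abundant, at 255.3 TPM in labeled and 939.3 in unlabeled RNA, a ratio of 0.272. Its paralog Smarca1 stood at 17.36 and 44.14, a ratio of 0.393, and over all transcripts Smarca5 was 6.24 times as high in unlabeled RNA and 3.85 times in labeled RNA. Among the bromodomain partners of these motors, Baz2a, a subunit of the nucleolar remodeling complex, had the lowest ratio, 0.257, from 96.89 and 376.8 TPM, and Baz2b the highest, 0.705, from 41.21 and 58.44. Bptf, the large subunit of NURF that reads trimethylated H3K4, had 201.9 and 476.4 TPM and a ratio of 0.424. Baz1a and Baz1b, partners of Smarca5 in the ACF and WICH complexes, had ratios of 0.378 and 0.601.

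The CHD class, without the NuRD motors, was split. Chd1, a motor linked to elongating RNA polymerase II, had 124.5 TPM in labeled and 382.7 in unlabeled RNA, a ratio of 0.325, and Chd8, a motor known from autism genetics, had 63.25 and 171.1, a ratio of 0.370. Chd9 had a ratio of 0.605. Chd2, Chd6 and Chd7, the last mutated in CHARGE syndrome, had ratios of 1.12, 1.06 and 1.04, all above the median gene. In each of those 3 genes the most abundant transcript was a short one, with 5, 5 and 3 exons where the longest has 39, 37 and 38. For the transcript with the most exons the ratio was 1.44 in Chd2, from 93.22 and 64.59 TPM, 0.826 in Chd6, from 73.15 and 88.59, and 0.669 in Chd7, from 46.87 and 70.09. In the full-length form Chd2 therefore stayed above the median gene at 0.785, Chd6 lay close to it and Chd7 lay below it.

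All 8 genes of the NuRD class lay below the median gene as well, 4 of them at least 2-fold. Chd4, the main motor of NuRD in these cells, had 153.8 TPM in labeled and 530.2 in unlabeled RNA, a ratio of 0.290. Over all transcripts it was 20.7 times as high as Chd3 and 323.2 times as high as Chd5 in unlabeled RNA; Chd5, a motor of neurons and testis, had just 0.96 and 2.03 TPM. The scaffold subunit Gatad2b was the most abundant, at 189.6 and 564.1 TPM, and its paralog Gatad2a had the lowest ratio of the class, 0.267, from 79.93 and 299.0. Of the Mta subunits, which anchor the deacetylases, Mta3 had the highest ratio of the class, 0.533, from 118.8 and 222.7 TPM, Mta2 had 0.464 and Mta1 0.317. The ratios of the class covered the narrow range from 0.267 to 0.533.

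Of the 8 genes of INO80, SRCAP and p400, 7 lay below the median gene, with a class median of 0.483. The motor Ino80 had 61.14 TPM in labeled and 186.3 in unlabeled RNA, a ratio of 0.328. Srcap, which exchanges H2A for H2A.Z, had 134.8 and 253.4, a ratio of 0.532, and Ep400, the motor of the p400 complex, had 68.58 and 172.4, a ratio of 0.398. The accessory subunit Ino80d was the most abundant, at 200.0 and 283.7 TPM. The small subunits Ino80e and Ino80b gave the extremes, at 0.0687 from 5.12 and 74.55 TPM and at 1.26 from 4.51 and 3.57. Ino80e-205 held 40.0% of the gene's coding exon TPM in unlabeled RNA but 6.40% in labeled RNA, and its longest transcript Ino80e-203 had a ratio of 0.527 from 24.04 and 45.65 TPM.

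Atrx, a motor that deposits H3.3 at telomeres and repeats and is mutated in ATR-X syndrome, had the highest exon TPM of all members, 983.1 in labeled and 1585 in unlabeled RNA, a ratio of 0.620. This was Atrx-222, with 6 exons, and the transcript with all 35 exons, Atrx-202, had 430.1 and 696.1 TPM, a ratio of 0.618. Smarcad1, a motor that acts at replication and repair sites, had a ratio of 0.342, from 70.09 and 205.2 TPM. Smarcal1, which remodels stalled replication forks, had 26.58 and 30.58 TPM, a ratio of 0.869. Only Smarcal1 of these lay above the median gene.

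Brd2, Brd3 and Brd1 lay below the median gene within a narrow range. The BET gene Brd2 had 204.2 TPM in labeled and 479.6 in unlabeled RNA, its paralog Brd3 had 59.65 and 140.1, and both had a ratio of 0.426. Brd1, a subunit of a histone acetyltransferase complex, had 42.71 and 116.5, a ratio of 0.367. The introns of Brd2 and Brd3 had labeled to unlabeled ratios of 9.79 and 8.35, against 4.26 for Brd1.

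The intron to exon ratio of each library is the quantity on which the model of the study rests. Members had a median of 0.293 in labeled RNA (quartiles 0.194 and 0.394, 95% order-statistic interval 0.223 to 0.321), against 0.472 over all genes. In unlabeled RNA the median was 0.0282 (quartiles 0.0171 and 0.0607, interval 0.0227 to 0.0497), against 0.0920. The labeled ratio was at least 2 times the unlabeled in 52 of 53 members, against 79.9% of all genes, and the exception was Smarcd3, at 0.234 and 0.181. Both ratios were lower in more abundant genes: rho with mean exon TPM was −0.43 in labeled and −0.57 in unlabeled RNA over the 53 members, and −0.59 and −0.65 over all genes. Exon TPM is also the denominator of these ratios, so a negative rho is partly built in. Above 100 TPM the medians of members and all genes were 0.250 and 0.202 in labeled RNA and 0.0262 and 0.0269 in unlabeled RNA. In that band, which holds 31 of the 53, the members were not lower in labeled RNA. At 10 to 100 TPM, with 19 members, they were lower in both libraries. The medians there were 0.311 against 0.471 in labeled and 0.0455 against 0.0871 in unlabeled RNA. Span and labeled ratio had a rho of 0.02 over the members and 0.28 over all genes.

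**Figure D3:**
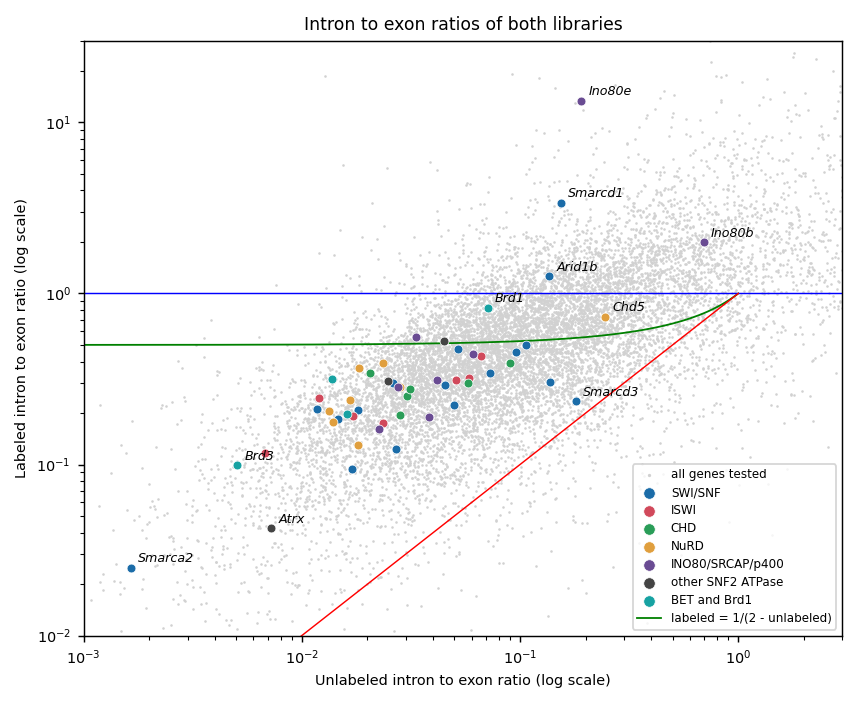
Labeled against unlabeled intron to exon ratio (both log axes) for the 53 genes, coloured by class, and for all genes tested (grey, points beyond the axes not drawn). The blue line marks a labeled ratio of 1, the red line equal ratios and the green line the bound above which the model has 1 exact solution. Ino80e, Smarcd1, Ino80b and Arid1b lie above the blue line, and no member lies under the red line.

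The model allows a labeled ratio under 1 that exceeds the unlabeled ratio. Of the members 4, or 7.55% (95% Clopper-Pearson interval 2.09 to 18.2%), were incompatible with it, against 28.6% of all genes. The gap depended on abundance: with a minimum mean exon TPM of 10 the shares were 6% of 50 members and 14.1% of all genes. All 4 had a labeled ratio of 1 or more, against 22.5% of all genes, and none had a labeled ratio not above the unlabeled one, against 6.05%. They were Ino80e, with a labeled ratio of 13.4, Smarcd1 with 3.40, Ino80b with 1.99 and Arid1b with 1.26. For Ino80e-205 the introns had 68.44 TPM in labeled and 14.23 in unlabeled RNA beside exons at 5.12 and 74.55. For Smarcd1 the introns had 119.2 and 29.13 TPM, the highest intron values of the representative transcripts in both libraries. The annotation shows the antisense gene Gm44287 over Ino80b, with 11.24 and 4.49 TPM of its own exons, and the pseudogene Gm15599 on the other strand within Arid1b, with 63.56 and 86.85. Over Smarcd1 it shows Gm17349, at 0 in both libraries, and over Ino80e-205 no gene that has values in these data. Only genes with such values, and only the representative transcript of each member, were compared. The part of these neighbours in the ratios was not tested.

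Among the 49 compatible members, the labeled ratio was highest in Brd1, at 0.826, and Chd5, at 0.729, followed by Ino80 and Smarcad1, at 0.560 and 0.525. These 4 were the members above the line 1/(2 − unlabeled ratio), where the model has 1 exact solution, against 20.3% of all genes. Over all 53 genes the labeled ratio spread widely within classes. In SWI/SNF it ran from 0.0249 in Smarca2 to 3.40 in Smarcd1, in ISWI from 0.116 in Smarca5 to 0.431 in Baz1b, in CHD from 0.194 in Chd7 to 0.390 in Chd2, in NuRD from 0.131 in Chd4 to 0.729 in Chd5, and in INO80, SRCAP and p400 from 0.161 in Ino80d to 13.4 in Ino80e. Atrx had 0.0424 against 0.525 in Smarcad1, and Brd3 had 0.0994 against 0.826 in Brd1. An exact solution existed for 9 members, or 16.98%, against 26.5% of all genes. Below the line, 5 members had 2 solutions (Arid2, Brd8, Chd3, Gatad2a and Smarcc2), against 5.87% of all genes, and 40 had none, 75.5% against 45%. For those 40 only the ratio of processing to degradation rate was varied, and the degradation rate followed from it and the observed ratios. The rates are the nearest to the data found so. Their median distance was 0.663 in natural log units of the ratios, against 0.807 for all such genes.

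With these limits, the fitted half-life of the 49 members had a median of 15.7 min (quartiles 11.1 and 24.2, 95% order-statistic interval 12.4 to 20.6), against 19.6 min over all compatible genes, which lies inside the interval, and the processing half-life was 2.80 min against 3.73 min. On the natural log scale per 10 min, the degradation rate was −0.82 (interval −1.09 to −0.58) against −1.04 and the processing rate 0.91 against 0.62. The rates use only the intron to exon ratios and not the exon ratio. In most bands of abundance, exon length or span, the members' median half-life was the shorter. It was 16.3 against 24.7 min above 100 TPM and 13.2 against 17.4 min at 10 to 100 TPM. It was the longer at 4000 to 8000 exon bases, at 17.7 against 17.2 min. At 10 TPM or less it was also the longer, at 20.7 against 18.2 min. There, only Chd5, at 14.4 min, and Smarcd3, at 27.1 min, had a fitted value. The fitted half-lives ran from 3.13 min in Brd7 to 152.3 min in Brd1, 122.4 min in Smarca2 and 89.9 min in Atrx. Smarca2 and Atrx had no exact solution. Their distances from the observed ratios, 2.65 and 2.39, were the largest of the members, whose median was 0.663, so these values are poor fits.

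Half-lives of single members moved with the processing. Subtracting leakage of unlabeled RNA into the labeled pool, set at 0.142 of the unlabeled value, moved 32 of 48 by more than 1.5-fold and 9 by more than 5-fold. Ino80 went from 40.2 to 2249 min, Chd1 from 5.84 to 89.0, Smarcad1 from 21.04 to 363.4 and Gatad2a from 7.15 to 344.5, and Brd1 was no longer compatible. Smarca4 went the other way, from 18.4 to 4.78 min, and Smarca5 from 31.8 to 12.9. Summing transcripts moved 21 of 49 by more than 1.5-fold, with Smarca2 at 47.5 and Atrx at 24.8 min. Of 2 solutions, that closer to the median rates of genes with 1 solution was used. Taking the one with the smaller ratio of processing to degradation rate moved all 5 of these members by more than 1.5-fold, Arid2 from 10.6 to 0.783 min and Gatad2a from 7.15 to 2.76. The order of single genes by half-life therefore depends on these choices.

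Of the 53 genes, 7 had 1 protein-coding transcript and 46 had several, up to 14. The same transcript was the most abundant in both libraries in 30 of the 46 and a different one in 16. In 8 genes, among them Atrx, Chd2, Chd6, Chd7, Chd8, Ep400 and Smarca2, the most abundant transcript had under 50% of the exons of the longest. Their median exon ratio was 0.636, against 0.442 for the other 45. These short transcripts share exons and introns with the long ones, so the assignment of reads between them is uncertain. The matching shares over all genes were not computed, so none of these counts is read as particular to the members.

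Of 19 motor genes, 97 protein-coding transcripts had values and 47 held the motif II stretch. All transcripts of Smarca4, Smarca5, Chd5, Chd9 and Ino80 held it. In 7 genes the most abundant transcript did not. The transcripts with the stretch held the lowest share in Atrx, 10.1% of exon TPM in labeled and 8.99% in unlabeled RNA. In Chd2 they held 14.5% and 13.4%. With Smarca2, described above, these were the genes with the lowest share in such transcripts. In Chd7 they held 34.1% and 46.3%, and in Smarcad1 43.3% and 84.8%. In Ep400 they held 59.3% and 63.5%, in Chd8 63.4% and 66.3%, and in Chd6 54.6% and 56.3%. The widest gap, with the lower share in labeled RNA, was that of Smarcad1, followed by Chd7, and in Chd3 it was higher, 68.0% against 45.2%. In 14 genes with both kinds of transcript, those without the stretch had the higher exon ratio in 10, and the medians over genes were 0.480 with the stretch and 0.566 without. For Smarcad1 the ratios were 0.342 and 2.49, since the 3 transcripts without the stretch, of 3 or 4 exons, together had 91.92 TPM in labeled and 36.90 in unlabeled RNA. A short transcript can lack the stretch because its model ends early, so the share says which annotated transcripts took the reads, not which proteins were made.

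**Figure D4:**
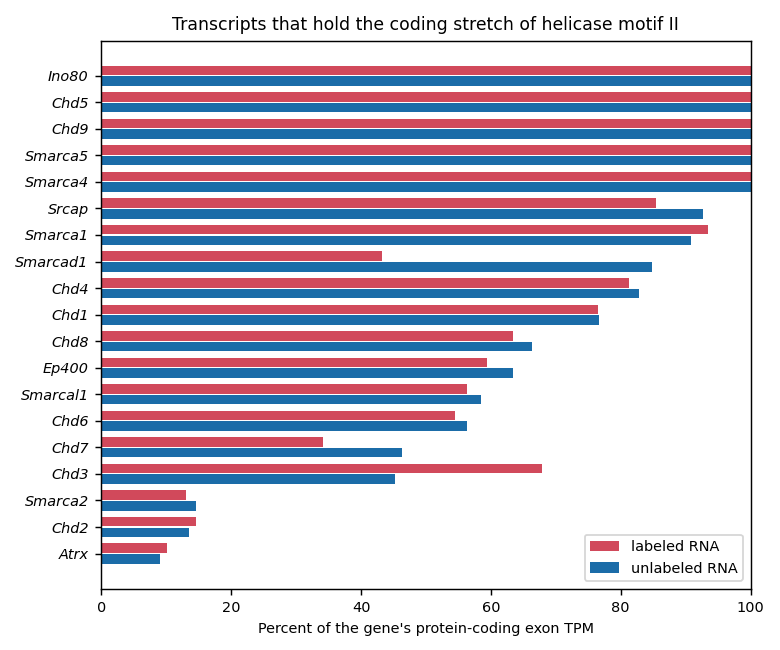
Percent of the protein-coding exon TPM of each of the 19 motor genes in transcripts that hold the motif II coding stretch, in labeled RNA (red) and unlabeled RNA (blue), 1 library each. The shares reach 100 in 5 genes and are lowest in Atrx, Chd2 and Smarca2, and Smarcad1 shows the widest gap, 43.3% against 84.8%.

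Transcripts confined to the first 50% of the gene had higher exon ratios than those across its middle. In the members, 38 such transcripts of 15 genes had a median of 0.597, 143 across the middle had 0.473, and 30 within the last 50% had 0.504. Over all genes the medians were 0.902, 0.756 and 0.635. Within genes, the most abundant transcript of the first part had the higher exon ratio in 11 of 15 members (73.3%), by a median of 1.27-fold, and in 61.7% of 1379 genes of the whole table, by 1.18-fold. Within genes the members thus went in the direction of the table as a whole, though 15 genes are few. The last 50% differed: its transcripts were above those across the middle in members, and below them over all genes. Baz1a-202, with 29.92 TPM in labeled and 12.76 in unlabeled RNA, was 6.20 times as high in ratio as Baz1a-205. Smarcad1-212 was 4.48 times as high as Smarcad1-201, and Chd7-204, with 34.95 and 7.97 TPM, 4.21 times as high as Chd7-203. Ino80e-205 went the other way, at 0.130 times Ino80e-203.

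Genes of the same pathways outside the rule were taken from a list of 69 bound subunits and other remodeler or bromodomain genes, of which 66 passed the filter. Their median exon ratio was 0.606, between that of the members and of all genes, and 45 lay below the median gene. At least 2-fold below it were 9, or 13.6%, which is near the 14.3% of all genes, and at least 2-fold above it were 7, or 10.6%, against 21.2%. By group the medians were 0.468 for other remodelers, 0.500 for other bromodomain genes, 0.589 for NuRD partners, 0.721 for partners of INO80, SRCAP and p400 and 1.14 for SWI/SNF partners. The lowest was Trim33, a bromodomain cofactor of Smad signaling, at 0.243 from 269.7 and 1110 TPM, and the highest was Bcl7a, a small BAF subunit, at 2.75 from 35.07 and 12.75. All 3 Bcl7 genes were at least 2-fold above the median gene, as were 21.2% of all genes, while 16 of the 17 SWI/SNF members were not. Bcl7b and Bcl7c rest on low exon values, 6.16 and 4.44 TPM in unlabeled RNA. The median labeled intron to exon ratio of the 66 was 0.340 and their median fitted half-life 17.5 min. Of them 5 (Actr5, Bcl7b, Bcl7c, Dpf3 and Mbd3) were incompatible with the model, 7.58% against 28.6% of all genes. These shares are not matched for abundance: the median mean exon TPM was 81.8 in the 66 and 27.7 over all genes.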

How the data were processed

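Labeled and unlabeled RNA of replicate 1 were analysed, 1 library each. The authors aligned reads with STAR (2.5.0, per the submitters' processing notes) to exons and introns of mm10/GRCm38 and quantified them with RSEM, with Ensembl v91 as annotation. The deposited values are a score called TPM by the authors, with a total of 10 times a TPM column, and thresholds were applied to it as deposited. Members and lists were chosen with earlier results of these data known.

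Transcripts were matched by identifier to GENCODE M21, which annotated 90.9% of exon rows. A gene was kept where no value was 0 and its mean exon TPM was above 1. Ratios had no pseudocount. Rates followed the study's Eqs. 10 to 17 on 4000 grid points with the labeling time of 10 min as unit, and the solver was tested on simulated data. Genes were named by rule, as the catalytic genes and, in each class, the extremes of mean exon TPM, labeled ratio and exon ratio; others were named with their values known. Values of 1 member are not reported here, though it stays in all counts and medians. The stretch around motif II, planned from a protein table not used here, was read from the coding frame of GENCODE transcripts, and a transcript counted as holding it when it contained the central 36 bases. Alternatives were other TPM minimums, a pseudocount of 0.1, summed transcripts, every transcript, leakage subtraction (0.142, the 1st percentile of the exon ratio), no centring, and other solutions. The work used scipy 1.17.1, pandas 2.3.3 and numpy 2.4.6 in Python 3.11.15, with figures by matplotlib 3.10.9.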

Additional observations from a re-analysis of the deposited data

How the results depend on the processing

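Under the alternatives tried, no value of the members changed direction, and 43 of 54 were classed as the same as that reported. The count at least 2-fold above the median gene, 1 of 53, was 0 of 50 with a minimum of 10 TPM, against 17.4% of all genes. Over every transcript it was 7 of 211, against 20.7% of all transcripts. The count at least 2-fold below, 19 of 53, was 55 of 211 over every transcript, against 13.8% of all transcripts. Without centring on the median gene it was 29 of 53, against 25.6% of all genes. After subtraction of leakage it was 27 of 52, against 21.4% of all genes. With a minimum of 10 TPM it was 13 of 50, against 10.7%. The last 2 settings were classed as the same, though the counts shifted. The median labeled intron to exon ratio, 0.293, was 0.344 with summed transcripts, 0.327 over every transcript and 0.382 after subtraction of leakage, which left 52 genes, and the median exon ratio, 0.448, then fell to 0.314. The median ln degradation rate, −0.82, was −0.54 with summed transcripts and −0.42 over exact solutions, where the ln processing rate, 0.91, was 0.74. Every transcript enlarges the set and exact solutions shrink it to 9 genes; the cause of the other shifts was not tested. For every alternative that recomputed it, the members' median exon ratio stayed below and the median ln degradation rate above that of all genes. No paired analysis was possible because each pool has 1 library. Depth is unknown, and values near 0, as for Smarcd3, Chd5 and the introns of Smarca2, carry the least precision.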

Other observations

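Noncoding transcripts of the same genes also had exon values, which no comparison above uses. Over 100 transcripts of 34 member genes annotated as retained introns, the median labeled to unlabeled exon ratio was 0.634, and 38.0% had a ratio above 1, against 11.6% of the members' 216 coding transcripts with exon values above 0. Over all genes tested the median of retained-intron transcripts was 1.09, with 53.7% above 1. Within genes, retained-intron transcripts had a higher ratio than coding ones in 24 of 34 members, by a median of 1.40-fold, and in 70.9% of 4986 genes, by 1.27-fold, so the share in members was near that of the table. The highest ratios were those of Arid2-203, with 15.62 TPM in labeled and 1.02 in unlabeled RNA, and Smarcc1-209, with 75.45 and 5.61. The 28 transcripts of 15 member genes annotated for nonsense-mediated decay had a median of 0.580, and within genes the ratio to coding transcripts was 1.06-fold in members and 0.986-fold over all genes. Many of these models share exons with coding ones, so how reads were divided among them is uncertain.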
